A study of Mus musculus with 12 samples.

Results

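The vascular and axon guidance genes are the ligands and receptors of the semaphorin, ephrin, Slit and netrin systems, measured here in cultured mouse aortic endothelial cells labelled as lacking the transcription factors Ets1, Ets2 or both, and in wild-type cells. Members were chosen by symbol: a gene counted if a probe set carried exactly 1 symbol that began with Sema, Plxn, Epha, Ephb, Efna, Efnb, Robo, Slit, Unc5 or Ntn and a number or letter of that family, or that was Nrp1 or Nrp2. This gave 45 of the 11015 genes tested, and 79 of 20523 probe sets. They were 5 secreted class 3 semaphorins, 8 other semaphorins, 2 neuropilins, 8 plexins, 8 ephrins, 2 EphA and 3 EphB receptors, 3 Slits, 1 Robo receptor, 2 netrins and 2 Unc5 receptors. The remaining one, Unc50, matches the pattern by its letters alone and is not a netrin receptor, so 44 genes are guidance genes in the biological sense. Among 35 genes of these families with known vascular roles that were listed for this report, 27 were measured, and others such as Robo4, Sema6a and Epha4 were not analysed here.

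Guidance cues were first described in the growth cones of axons, and the same molecules steer endothelial cells. Class 3 semaphorins are secreted and act through plexins, often with a neuropilin as co-receptor, while Sema3e binds plexin D1 directly and repels sprouting endothelial cells. Ephrins and Eph receptors signal in both directions between touching cells, and ephrin-B2 on arterial cells and EphB4 on venous cells mark the arterial and venous sides of the vascular tree. Slits signal through Robo receptors, and netrins through receptors that include Unc5b, which is found on endothelial tip cells.

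The cells came from the aorta of 4-week-old mice and were grown in a serum-rich medium with heparin and ECGS, an endothelial growth supplement. Cells labelled Ets1KO were Ets1-/-; Ets2fl/fl and received lentiviral-egfp. Cells labelled Ets2KO were Ets1+/+; Ets2fl/fl and received lentiviral-egfp-Cre. Cells labelled DKO were Ets1-/-; Ets2fl/fl and received lentiviral-egfp-Cre. WT cells were Ets1+/+; Ets2+/+ and received lentiviral-egfp. Every group therefore carried a lentivirus, Cre was present wherever Ets2 was deleted, so these cannot be told apart, and Ets1KO cells carried floxed Ets2 without Cre. The labels name no promoter for Cre. Each group had 3 columns of log2 values, but in 20521 of 20523 probe sets the third DKO column is the average of its companions. It was left out, which leaves 11 arrays and 2 for DKO. The titles call the arrays biological replicates, and nothing else says that they came from separate animals, so p-values may measure technical spread.

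The arrays labelled DKO sat lower than the others, their medians being 8.29 to 8.30, while the 9 other arrays had medians of 9.05 to 9.15. Comparisons that involve DKO were therefore made on log2 values minus the median of each array, called relative values below, with the difference in the deposited values beside them. Against WT, the median gene stood at 0.18 in relative values and at -0.61 as deposited in DKO, at 0.01 in Ets1KO and at -0.02 in Ets2KO. The targeted genes were read as well. Ets1 had 8.31 to 9.17 in Ets1KO and 10.02 to 10.29 in DKO, against 9.84 to 10.26 in WT, and Ets2 had 9.35 to 10.13 in Ets2KO and 9.63 to 11.02 in DKO, against 9.72 to 10.70 in WT. As deposited, both transcripts overlapped between the arrays labelled DKO and WT, and Ets2 also between Ets2KO and WT. In relative values Ets1 was 1.72 to 1.99 in DKO, above the 0.72 to 1.21 of WT. Relative Ets2 was 1.34 to 2.72 in DKO and 0.68 to 1.59 in WT, which overlap. DKO below means the arrays labelled DKO. Of 19 endothelial markers listed, 6 were measured (Kdr, Flt1, Eng, Cd34, Egfl7 and Mmrn2), and their mean relative level ran over -1.61 to -1.42 across the Ets1KO arrays, -0.81 to -0.25 across Ets2KO and -1.34 to -0.99 across DKO, against -1.14 to -0.027 across WT. Kdr and Mmrn2 lay below the array's own median in every array, and Cd34 lay above it in every Ets2KO and WT array. The mean of 9 fibroblast markers measured of 10 ran over -0.29 to 0.61 across Ets1KO, 0.17 to 1.29 across Ets2KO and 0.60 to 1.69 across DKO, against 0.41 to 1.004 across WT. Col1a1, Col1a2, Col3a1 and Pdgfra lay above and Lum below the median in every array. Of 5 smooth muscle markers measured of 8, Acta2 and Smtn lay above it in every array, Lmod1 and Des below it, and Tagln on both sides. Of 5 pericyte markers measured of 8, Pdgfrb lay above it in every array and the others on both sides. WT replicate 3 was closest to Ets1KO replicate 3 by correlation (r = 0.924), and each other array was closest to its own group.

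No guidance gene passed the test when a single knockout was compared with WT. A gene was called when its limma p-value, adjusted over all 11015 genes, was below 0.05. In Ets1KO against WT 0 of 45 members were called, beside 0.00908% of all genes, and in Ets2KO against WT 0 were called, beside 0.3% of all genes. At an unadjusted p below 0.05 there were 2 members in Ets1KO, beside 8.62% of all genes, and 9 in Ets2KO, beside 19% of all genes. The arrays of the knockout and WT did not overlap for 7 members in Ets1KO (2 higher, 5 lower), beside 17.9% of all genes (8.82% higher, 9.08% lower). In Ets2KO this held for 10 members (6 higher, 4 lower), beside 26.5% of all genes (12.4% higher, 14.1% lower). The members' median difference was -0.07 in Ets1KO and 0.13 in Ets2KO, and the median size of a difference was 0.24 and 0.48, against 0.18 and 0.26 over all genes.

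More members were called in the arrays labelled DKO, where a large share of all genes was called too. Against WT 7 of 45 members were called (3 higher, 4 lower), which is 15.6% beside 30.3% of all genes (19.8% higher, 10.6% lower), and 12 had an unadjusted p below 0.05, beside 42.3% of all genes. Against Ets1KO 9 were called (5 higher, 4 lower), beside 31.5% of all genes (21.6% higher, 9.94% lower), and against Ets2KO 13 were called (6 higher, 7 lower), beside 32.1% of all genes (20% higher, 12.1% lower). The shares of members called in these last comparisons were 20% and 28.9%, and whether the members' shares differ from those of all genes was not tested. At the probe sets tested, no call of a higher level held on both scales. As deposited 0 members were called higher in these 3 comparisons, beside 2.32%, 1.72% and 3% of all genes. Called lower as deposited were 15 members against WT, 14 against Ets1KO and 17 against Ets2KO, where 45.9%, 44.5% and 46.3% of all genes were called and 43.6%, 42.8% and 43.3% were lower. Members called lower on both scales numbered 4 against WT, 4 against Ets1KO and 7 against Ets2KO, beside 10.6%, 9.94% and 12.1% of all genes. These are the same shares as for lower calls in relative values alone. The deposited DKO values sit lower throughout, so a second lower call as deposited is no further check of a fall, here and below. The 3 comparisons with WT share the same 3 WT arrays, and the 3 comparisons with DKO share the same 2 DKO arrays, so their values are given side by side. Between DKO and Ets2KO the Y-linked gene Eif2s3y differed too, at 3.63 to 3.66 against 9.30 to 10.23. In that comparison genotype therefore cannot be told apart from this Y-linked difference, here and below.

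**Figure D1:**
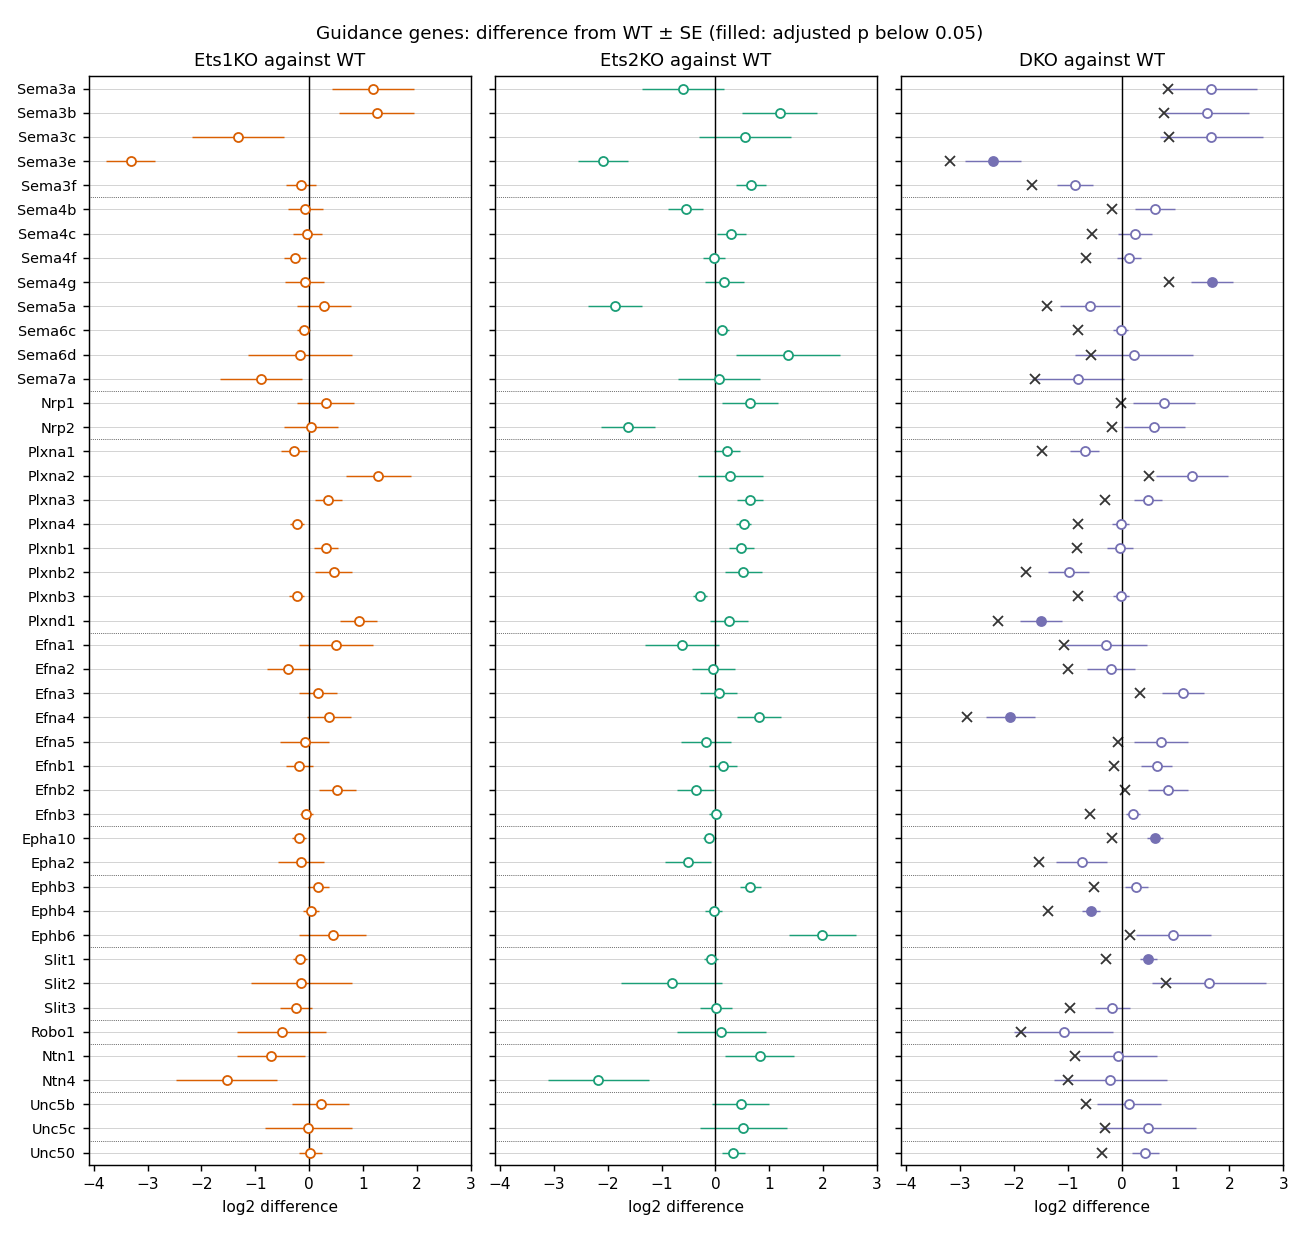
Log2 difference from WT of each of the 45 guidance genes (horizontal axis, with bars of 1 SE) in Ets1KO and Ets2KO as deposited and in DKO relative to array medians, ordered by family; filled points have adjusted p below 0.05 and crosses give the DKO difference as deposited. No point is filled for Ets1KO or Ets2KO, and 7 are filled for DKO, of which Sema3e, Plxnd1, Efna4 and Ephb4 lie below 0 on both scales.

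Sema3e, the secreted ligand of plexin D1, was the 1 member whose arrays lay below every WT array in all 3 mutants. At the probe set tested it read 5.54, 5.67 and 5.50 in Ets1KO, 6.78, 7.13 and 6.49 in Ets2KO, and 6.15 and 5.26 in DKO, against 9.09, 7.77 and 9.80 in WT (log2, as deposited). The highest mutant array, at 7.13, was still below the lowest WT array, at 7.77. The difference from WT was -3.31 in Ets1KO (SE 0.46, adjusted p = 0.0761) and -2.09 in Ets2KO (SE 0.46, adjusted p = 0.0814), so neither passed the test. In DKO it passed, with a relative difference of -2.38 (SE 0.52, adjusted p = 0.00889) and a difference of -3.18 as deposited. The mutant levels were near the bottom of the array, where the Ets1KO mean stood at percentile 0.599 of all genes, the Ets2KO mean at 4.88 and the DKO mean at 1.90, against 38.4 for the WT mean. No fold is therefore given. In bulk RNA, fewer cells that make a transcript and less of it per cell cannot be told apart.

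Sema3e has 2 other probe sets, and their deposited group means ran in the same order, with Ets1KO lowest, then DKO, Ets2KO and WT. The first read 4.60, 5.45 and 4.61 in Ets1KO, 6.25, 6.66 and 6.17 in Ets2KO, and 6.84 and 5.59 in DKO, against 9.00, 7.43 and 9.33 in WT. The other read 4.47, 3.95 and 3.79 in Ets1KO, 5.53, 6.65 and 6.01 in Ets2KO, and 6.73 and 4.42 in DKO, against 8.30, 6.82 and 9.56 in WT. As deposited, no mutant array reached the lowest WT array at any of the 3 probe sets. Relative to array medians this held at the probe set tested, but DKO replicate 1 lay above WT replicate 2 at both others. Their differences from WT were -3.70 and -4.16 in Ets1KO, -2.22 and -2.16 in Ets2KO, and -1.58 and -1.86 in DKO relative to array medians, and none of these 6 was called over all probe sets, although as deposited both DKO differences were (-2.37 and -2.65).

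**Figure D2:**
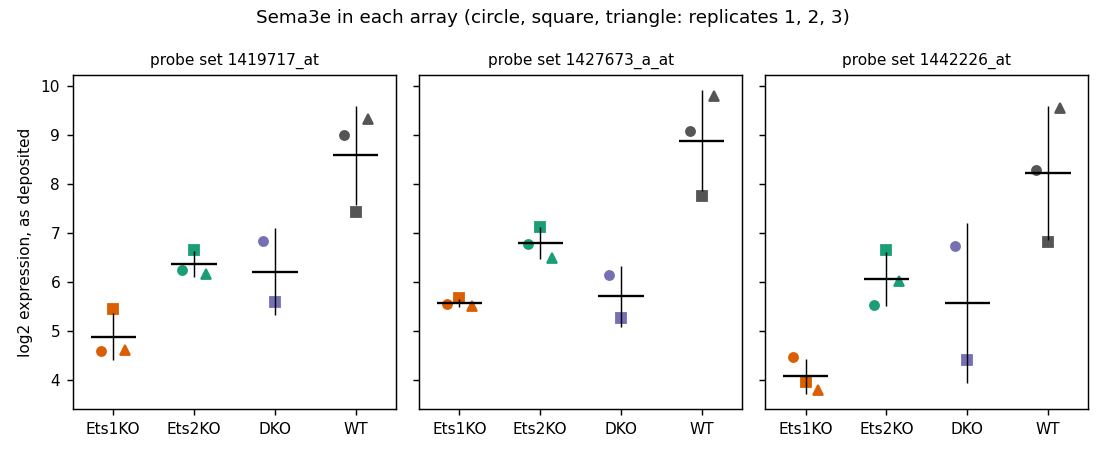
Log2 expression of Sema3e as deposited (vertical axis) in each array at its 3 probe sets, by group; horizontal lines are group means, vertical lines 1 SD, and the shapes are replicate numbers. As deposited, all 3 WT arrays lie above all mutant arrays at each probe set, and WT replicate 2 is the lowest of WT at each. Relative to array medians, DKO replicate 1 lies above WT replicate 2 at both probe sets that were not tested.

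The WT arrays set how firmly the Sema3e difference can be read. Their SD at the probe set tested was 1.03, against 0.09 in Ets1KO, and WT replicate 2 was the lowest of them. Without WT replicate 2 the gene was called in Ets1KO (-3.87, adjusted p = 0.00460) and in Ets2KO (-2.65, adjusted p = 0.0462), and without WT replicate 3 it was called in Ets1KO (-2.86, adjusted p = 0.0499). A fit without a DKO array leaves 1 there, which is assumed to vary like the other groups, here and for the genes below. The call in DKO was lost without DKO replicate 2 and in a fit of DKO and WT alone, where the adjusted p was 0.0718. Other transcripts also moved with the groups. The Y-linked gene Eif2s3y read 9.30 to 10.23 in the Ets2KO arrays and 9.37 in WT replicate 1, against 3.12 to 3.66 in all other arrays, and Xist ran the opposite way. Pdpn, the 1 lymphatic marker measured of 6, was -3.68 from WT in Ets1KO, -3.09 in Ets2KO and -2.64 in DKO without being called. Its relative values were -2.80 to -2.22 in Ets1KO, -2.79 to -1.39 in Ets2KO and -2.10 to -0.93 in DKO, against 3.89, 1.65 and -2.17 in WT. The mean relative level of 4 measured adipocyte markers of 8 (Adipoq, Fabp4, Lpl and Pparg) was -3.20 to -2.86 in Ets1KO, 1.08 to 4.13 in Ets2KO and -2.26 to 0.63 in DKO, against -2.06 to 2.88 in WT. The part of these transcripts in the Sema3e difference was not tested.

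The promoter of Sema3e is shown because ETS factors bind sites with the core GGAA. At the probe set tested, Sema3e was also the member below WT in every mutant array. The window runs from 250 bases before to 50 bases after the gene start in RefSeq (GRCm38.p6, chr5:14025026-14025325, plus strand), written 5' to 3'. Capitals mark CTTCCTG, which is the ETS site CAGGAAG on the other strand at position -58 from the start, and CACGTG, which holds the hypoxia response core ACGTG on each strand at positions 24 and 25, the 2 matches overlapping.
Sema3e: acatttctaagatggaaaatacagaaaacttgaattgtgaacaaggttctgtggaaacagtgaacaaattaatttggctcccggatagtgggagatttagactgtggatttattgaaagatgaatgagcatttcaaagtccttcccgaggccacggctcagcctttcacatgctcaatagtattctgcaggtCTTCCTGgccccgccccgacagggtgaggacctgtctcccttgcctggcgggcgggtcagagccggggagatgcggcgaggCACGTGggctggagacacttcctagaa
Exact matches on either strand were searched for the ETS sites CCGGAAG and also CAGGAAG, and for the hypoxia core ACGTG. In RefSeq promoters of 38 of the 45 members, CCGGAAG was found for 3 genes (Ephb6, Plxnb1 and Unc50), CAGGAAG for 5 (Efna4, Efnb1, Plxna3, Sema3e and Sema4b) and ACGTG for 7 (Ephb3, Ephb6, Sema3c, Sema3e, Sema4b, Sema4g and Sema6d). Of all 32851 promoters in the table, 8.86% held the first ETS site, 13.27% the second and 19.62% the hypoxia core. A match is a run of letters in this window and no measure of binding. The core GGAA alone was not searched, and it also occurs outside the capitals in the Sema3e window.

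No other class 3 semaphorin lay below WT in every mutant array. Sema3a, which repels axons and endothelial cells through Nrp1, read 11.43, 10.86 and 11.06 in Ets1KO and 10.30, 9.79 and 7.89 in Ets2KO, against 9.20, 9.72 and 10.87 in WT. The Ets1KO and WT ranges met, and the difference was 1.19 (SE 0.76, adjusted p = 0.683). Sema3c, an attractive cue in the outflow tract, read 10.56, 7.89 and 8.40 in Ets1KO and 9.75, 11.08 and 11.62 in Ets2KO, against 11.60, 9.09 and 10.12 in WT, with no separation between groups. Its relative values in DKO were 3.43 and 2.27, above all 3 Ets1KO values of 1.43, -1.25 and -0.75, a difference of 3.04 (adjusted p = 0.0389). As deposited that difference was 2.19 and was not called (adjusted p = 0.0900). The second Sema3c probe set gave 0.62 against Ets1KO in relative values and was not called. Against WT it pointed the other way, at -0.84 where the tested one gave 1.67. Sema3b differed from WT by 1.26 in Ets1KO and by 1.19 in Ets2KO and did not pass (limma adjusted p = 0.634 and 0.381).

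Sema3f, which repels lymphatic and blood endothelial cells through Nrp2, was the class 3 semaphorin that fell in DKO against Ets2KO. In that comparison genotype cannot be told apart from the Y-linked difference given above. Its relative values were 1.65 and 1.45 in DKO, against 3.25, 3.45 and 2.60 in Ets2KO, 2.23, 2.11 and 2.31 in Ets1KO and 3.06, 2.16 and 2.02 in WT. The DKO arrays lay below all others. The difference from Ets2KO was -1.55 (SE 0.33, adjusted p = 0.00821) and -2.32 as deposited, and the other probe sets gave -3.92 and -3.83, all called. Against WT it was -0.87 and not called (adjusted p = 0.0766), while as deposited it was -1.66 and called (adjusted p = 0.00265). Its further probe sets were -2.15 and -2.09 from WT without a call, and as deposited -2.95 and -2.89, both called.

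Among the 8 other semaphorins, which are membrane-bound or, for Sema7a, GPI-anchored, 1 was called against WT. Sema4g had relative values of -0.69 and -0.46 in DKO, against -2.70, -2.21 and -1.84 in WT. The difference of 1.67 (SE 0.39) was called at adjusted p = 0.0127, but as deposited it was 0.88 and was not called (adjusted p = 0.105). Sema4g was also called higher against Ets1KO (1.80) and Ets2KO (1.48) in relative values only. Its mean stood near the bottom of the array in WT (percentile 4.99 of all genes), Ets1KO (5.67) and Ets2KO (7.34), and at 29.9 in DKO. Sema4b was called 1.15 higher in DKO than in Ets2KO, with relative values of 0.52 and 1.95 in DKO, against 0.52, -0.04 and -0.21 in Ets2KO. The lower DKO array thus equalled the highest Ets2KO array to 2 decimals, and as deposited the difference was 0.37 and not called. Sema5a, a large semaphorin with thrombospondin repeats, read 7.44, 8.14 and 7.77 in Ets2KO, against 9.09, 9.77 and 10.08 in WT. The groups did not overlap at -1.87 (SE 0.51), and the adjusted p of 0.119 did not pass. Its 3 probe sets gave -1.87, -2.03 and -1.55. Sema6d, which signals to plexin A1 in the developing heart, ranged from 8.28 to 12.52 in WT alone, and it was not called, nor were Sema4c, Sema4f, Sema6c and Sema7a on the scale used for each comparison.

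Neither neuropilin was called against WT. Nrp1, a co-receptor for class 3 semaphorins and for VEGF, read 10.92, 10.71 and 11.20 in Ets1KO and 11.38, 10.64 and 11.83 in Ets2KO, against 9.84, 11.43 and 10.65 in WT, with overlapping groups and no call. Nrp2, the co-receptor for Sema3f and for lymphatic VEGF-C, read 6.10, 6.83 and 6.65 in Ets2KO, below the WT values of 8.86, 8.60 and 7.00. The difference was -1.63 (SE 0.50, adjusted p = 0.149), and the other probe set gave -0.70. In DKO the relative values were -0.65 and -0.01, against -2.98, -2.23 and -2.43 in Ets2KO, a called difference of 2.21 (adjusted p = 0.0177). As deposited it was 1.44 and was not called (adjusted p = 0.0607).

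Plexin D1, the endothelial receptor of Sema3e, fell in DKO. Plxnd1 had relative values of -1.98 and -0.83 in DKO, against -0.18, -0.19 and 0.65 in WT, 1.23, 0.98 and 0.69 in Ets1KO and 0.28, 0.11 and 0.72 in Ets2KO. The DKO arrays were the lowest of all 11. The difference was -1.50 against WT (SE 0.38, adjusted p = 0.0179), -2.37 against Ets1KO (adjusted p = 0.00282) and -1.77 against Ets2KO (adjusted p = 0.00861), and as deposited -2.29, -3.21 and -2.54. Without DKO replicate 1 the calls against WT and Ets2KO were lost, with an adjusted p of 0.124 against WT. In Ets1KO, where Sema3e was lowest, Plxnd1 lay above WT in every array, by 0.92 (SE 0.35, adjusted p = 0.531), which did not pass. Plxnd1, Plxnb2 and Plxna1 have 1 probe set each.

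Plxnb2, a receptor for class 4 semaphorins, read 9.20 and 10.10 in DKO as deposited, against 11.94, 11.78 and 11.94 in Ets1KO, 11.99, 11.78 and 12.07 in Ets2KO and 11.77, 11.89 and 10.63 in WT. It fell by 1.39 against Ets1KO (adjusted p = 0.0234) and by 1.52 against Ets2KO (adjusted p = 0.0165) in relative values, and as deposited the differences were -2.23 and -2.30. Against WT the relative difference of -0.98 did not pass (adjusted p = 0.0826), while the deposited one of -1.78 did (adjusted p = 0.00469), and in relative values without WT replicate 3, the lowest WT array, it was -1.39 and passed (adjusted p = 0.00709). Plxna1, a partner of Nrp1, fell by 0.92 against Ets2KO (adjusted p = 0.0309), and was -0.69 from WT without passing (adjusted p = 0.0870). As deposited it was -1.69 from Ets2KO and -1.48 from WT, both called (adjusted p = 0.000895 and 0.00190). Plxna4, another Nrp1 partner, was the 1 member called between the single knockouts, beside 2.94% of all genes: it read 6.94, 7.10 and 6.94 in Ets1KO, against 7.77, 7.96 and 7.49 in Ets2KO, a difference of -0.75 (SE 0.14, adjusted p = 0.0322). WT lay between, at 7.18, 7.21 and 7.26. The Y-linked Eif2s3y read 3.12 to 3.33 in Ets1KO and 9.30 to 10.23 in Ets2KO. Between the single knockouts, genotype therefore cannot be told apart from this Y-linked difference. The second Plxna4 probe set differed from WT in the same directions (-0.88 in Ets1KO and 0.37 in Ets2KO) but was not called, and 5 of the 11 leave-one-out fits lost the call. Plxna4 also fell by 0.56 in DKO against Ets2KO (adjusted p = 0.0232), and by 1.34 as deposited. As deposited it was also called lower than in WT (-0.81) and Ets1KO (-0.59), where the relative differences were -0.018 and 0.25. Plxna2, Plxna3, Plxnb1 and Plxnb3 were not called on the scale used for each comparison.

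**Figure D3:**
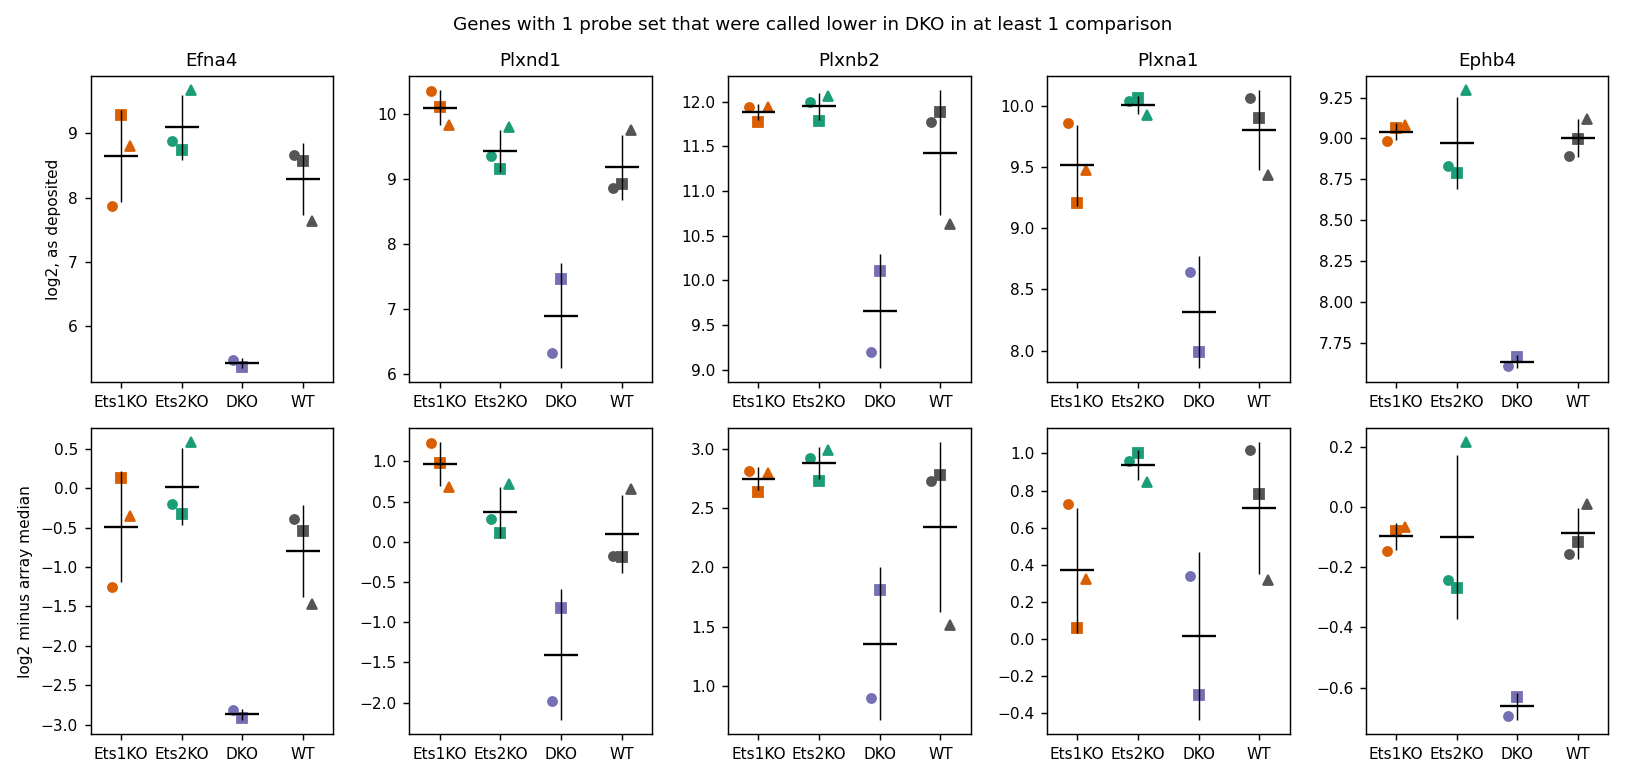
Log2 expression as deposited (upper row) and minus the array median (lower row) of Efna4, Plxnd1, Plxnb2, Plxna1 and Ephb4, the 5 genes with 1 probe set that were called lower in DKO in at least 1 comparison; points are arrays, horizontal lines group means and vertical lines 1 SD, and each panel has its own vertical scale. In Efna4, Plxnd1 and Ephb4 both DKO arrays lie below the other 9 arrays on either scale. In relative values WT replicate 3 lies between the DKO arrays in Plxnb2 and Plxna1, and in Plxna1 so do Ets1KO replicate 2 and Ets1KO replicate 3.

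Among the ephrins, Efna4 fell in DKO and stayed within the range of WT or above it in the single knockouts. Efna4, a GPI-anchored ligand of Eph receptors, had relative values of -2.82 and -2.92 in DKO, against -0.39, -0.55 and -1.47 in WT, -1.25, 0.13 and -0.35 in Ets1KO and -0.20, -0.32 and 0.58 in Ets2KO. The difference was -2.07 against WT (SE 0.46, adjusted p = 0.00975), -2.38 against Ets1KO (adjusted p = 0.00562) and -2.89 against Ets2KO (adjusted p = 0.00226), and as deposited -2.86, -3.22 and -3.66. Each of these was called on both scales, and the calls against Ets1KO and Ets2KO were kept in all 11 leave-one-out fits. Against WT the call was lost without DKO replicate 2 (adjusted p = 0.0535). In Ets2KO it was 0.80 above WT with no overlap of arrays and no call (adjusted p = 0.322). Efna4 has 1 probe set. Its DKO mean stood at percentile 1.04 of all genes, near the bottom of the array, against 27.1 for the WT mean. No fold is therefore given.

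The promoter of Efna4 is shown as the other strongly lowered member with an ETS site. The RefSeq window is chr3:89337979-89338278 on the minus strand of GRCm38.p6, written 5' to 3' along the gene, with CAGGAAG in capitals on the gene's own strand at position -137 from the start.
Efna4: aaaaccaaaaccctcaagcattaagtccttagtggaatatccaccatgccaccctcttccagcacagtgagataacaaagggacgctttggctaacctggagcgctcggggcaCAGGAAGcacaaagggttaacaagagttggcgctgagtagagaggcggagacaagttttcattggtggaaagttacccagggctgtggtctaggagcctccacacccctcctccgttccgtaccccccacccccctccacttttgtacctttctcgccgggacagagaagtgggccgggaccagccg
The windows of Ephb4 and Plxnd1, the other members called lower in DKO than in WT, hold none of the 3 motifs as exact matches. The core GGAA alone does occur in both windows. Of all promoters, 13.27% hold CAGGAAG.

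Efnb2, the ephrin of arterial endothelium, read 11.67, 11.28 and 11.53 in Ets1KO and 10.55, 10.18 and 11.07 in Ets2KO, against 10.50, 11.76 and 10.64 in WT. The mutant and WT arrays overlapped, and neither difference was called (0.52 and -0.37). In DKO its 4 probe sets disagreed in sign: relative to WT they gave 0.86, 0.74, -2.16 and -2.85, the last 2 called lower. The call of Efnb2 as higher in DKO than in Ets2KO (1.20, adjusted p = 0.0356) therefore holds in relative values for the brightest probe set and for 1 other (1.27), neither of which was called as deposited (0.43 and 0.50), while the remaining ones were called lower (-1.59 and -2.63). Efnb1, which signals with EphB receptors, was called 0.88 higher in DKO than in Ets1KO (adjusted p = 0.0465), but as deposited the difference was 0.04. Its 3 probe sets ran from -0.10 to 0.88 in relative values, with 1 called. The call was also lost when any WT array, Ets1KO replicate 2 or 3, or Ets2KO replicate 2 was left out. Efna1, the ligand of EphA2 induced by tumour necrosis factor, had 6.97, 8.79 and 8.42 in Ets1KO and 6.51, 6.44 and 7.87 in Ets2KO, against 6.39, 7.83 and 8.46 in WT, and was not called. Efna2, Efna3, Efna5 and Efnb3 were not called in any comparison in relative values, and Efna3 came closest at 1.14 in DKO against WT (adjusted p = 0.0515, 0.34 as deposited).

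Ephb4, the receptor that marks veins, differed little among the groups outside DKO. Its relative values were -0.69 and -0.63 in DKO, against -0.15, -0.12 and 0.01 in WT, -0.15, -0.08 and -0.07 in Ets1KO and -0.24, -0.27 and 0.21 in Ets2KO. The DKO arrays lay below all others, and Ephb4 fell by 0.57 against WT (SE 0.16, adjusted p = 0.0272), by 0.56 against Ets1KO and by 0.56 against Ets2KO, and by 1.37, 1.41 and 1.34 as deposited. This was a small change, and the call against WT was lost without WT replicate 2, WT replicate 3 or either DKO array. Ephb3, a further ephrin-B receptor, read 9.45, 9.35 and 9.82 in Ets2KO, against 8.72, 8.81 and 9.15 in WT, a difference of 0.65 without overlap (SE 0.20, adjusted p = 0.150). Ephb6, an Eph receptor without kinase activity, read 7.95, 7.60 and 9.65 in Ets2KO, against 6.69, 7.04 and 5.52 in WT, a difference of 1.98 without overlap (SE 0.62, adjusted p = 0.154). Neither passed the test.

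Epha2, the main EphA receptor of adult endothelium, read 10.78, 10.30 and 10.32 in Ets1KO and 11.00, 10.35 and 8.97 in Ets2KO, against 10.55, 10.67 and 10.64 in WT, and was not called. In DKO it was -0.74 from WT in relative values without passing (adjusted p = 0.269), and -1.54 as deposited. Epha10, also without kinase activity, was called 0.62 higher in DKO than in WT (adjusted p = 0.0127) in relative values, but as deposited it was -0.17, with 7.49 and 7.54 in DKO against 7.79, 7.50 and 7.77 in WT. The deposited DKO and WT values of Epha10 overlapped, while the medians of the DKO arrays were lower. Slit1 was likewise called 0.50 higher in DKO than in WT in relative values (adjusted p = 0.0408) and was -0.30 as deposited, where its values of 6.59 and 6.73 in DKO lay below those of 7.12, 6.98 and 6.78 in WT. Its call against WT was lost in 9 of 11 leave-one-out fits.

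Slit2, the Slit best known in angiogenesis, read 10.25, 9.33 and 9.77 in Ets1KO and 10.29, 8.72 and 8.35 in Ets2KO, against 11.06, 11.20 and 7.53 in WT. WT replicate 3 lay apart from the other 2 WT arrays, and no comparison was called. In DKO the relative values of 3.08 and 1.84 lay on either side of 2.02 and 2.08 in WT replicates 1 and 2. The second Slit2 probe set was called higher in DKO than in WT on both scales (3.05, and 2.26 as deposited). The tested one gave 1.62 without passing (adjusted p = 0.276). Slit3 and the single Robo receptor measured, Robo1, were not called on the scales used here for each comparison. Robo1 was variable, with 7.71, 7.59 and 10.16 in Ets2KO, 7.52 and 5.48 in DKO and 7.54, 8.14 and 9.45 in WT.

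Netrins and their Unc5 receptors gave no call on the scale used for each comparison. Ntn4, a laminin-like netrin of vascular basement membrane, read 7.14, 6.42 and 6.14 in Ets1KO and 5.80, 6.22 and 5.76 in Ets2KO, against 7.99, 10.51 and 5.79 in WT. The mean differences of -1.53 and -2.17 came with a WT SD of 2.36, since WT replicate 3 was as low as Ets2KO. Ntn1, the founding member of the family, read 8.48, 9.85 and 10.33 in Ets1KO, against 10.71, 11.52 and 11.03 in Ets2KO, without overlap and without a call (-1.53, adjusted p = 0.199). Unc5b, the netrin receptor of tip cells, read 10.22, 10.31 and 9.56 in Ets1KO and 10.55, 10.63 and 9.66 in Ets2KO, against 9.90, 10.93 and 8.61 in WT, and the groups overlapped. Unc5c had 8.92 and 6.08 in DKO, a gap between 2 arrays of the same group.

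The guidance genes varied more between arrays of 1 group than genes in general. The median SD of a member was 0.25 in Ets1KO, 0.38 in Ets2KO, 0.44 in DKO and 0.51 in WT, against 0.18, 0.22, 0.23 and 0.25 for all genes. In WT 12 of 45 members (26.7%) had an SD over 1, against 6.17% of all genes, and Ntn4, Sema6d, Slit2 and Sema3e were among them. Whether these spreads differ beyond the make-up of the list was not tested.

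Probe sets of a gene gave like answers in the single knockouts and unlike answers in DKO. Of the 22 members with several probe sets, all probe sets had the same sign in 19 for Ets1KO against WT, in 21 for Ets2KO and in 11 for DKO. Across all 4785 genes with several probe sets the shares were 71.5%, 70.5% and 50.1%. The probe sets of a gene lay more than 1 apart for 0, 2 and 11 members, and for 2.19%, 6.48% and 45.3% of all genes. Beside Efnb2, these included Plxna2 (1.31, 1.11, 0.90 and -1.58), Plxna3 (0.48 and a called -1.06) and Sema3b (1.58 and -0.55) in DKO against WT. Sema3e, Slit2, Sema3a, Nrp1 and Sema5a kept 1 sign across their probe sets in DKO. Of the 4 members called lower than WT on both scales, only Sema3e has more than 1 probe set, so for Efna4, Plxnd1 and Ephb4 this check could not be made.

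**Figure D4:**
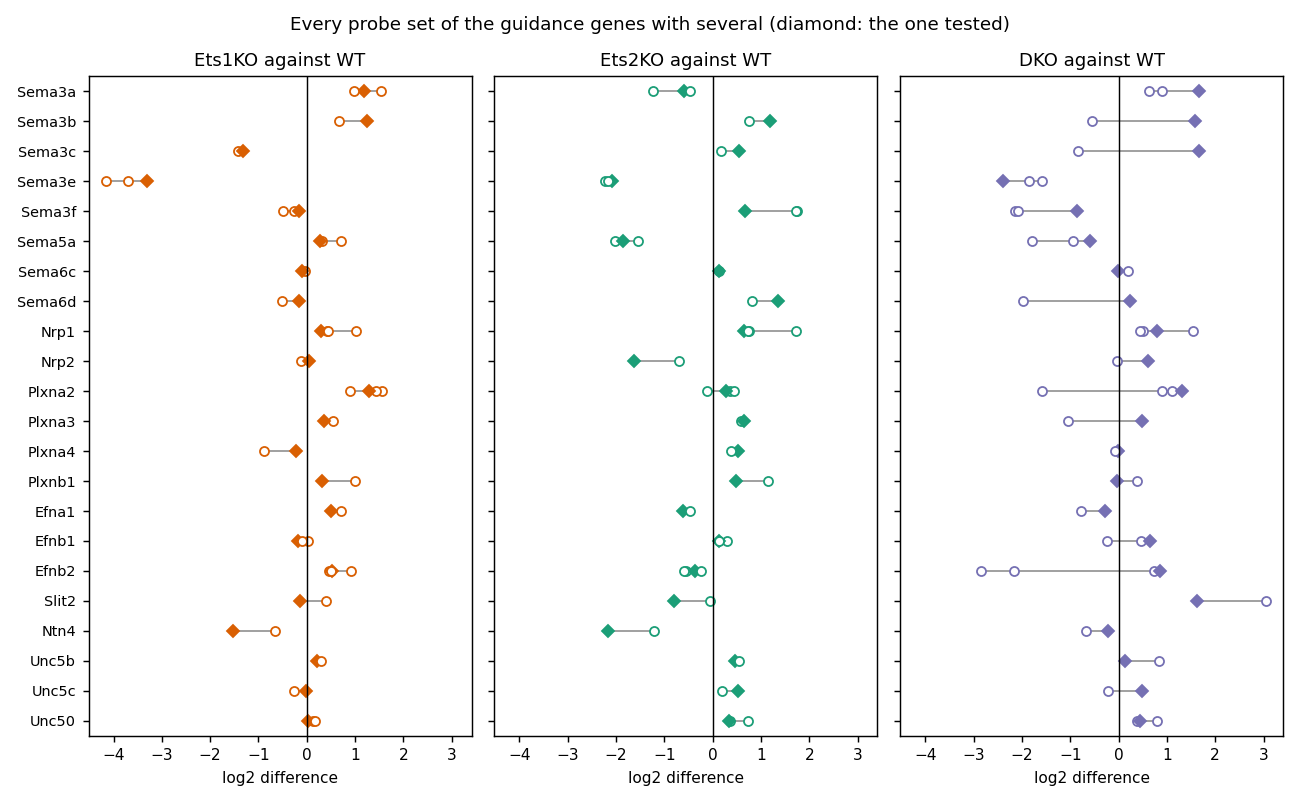
Log2 difference from WT at every probe set of the 22 guidance genes with several (horizontal axis; diamonds are the probe sets tested, open circles the others), as deposited for Ets1KO and Ets2KO and relative to array medians for DKO. The probe sets of a gene lie close together for Ets1KO and Ets2KO and spread for DKO, where those of Efnb2 run from -2.85 to 0.86.

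The question whether Ets2 deletion acts differently on an Ets1-null background was addressed, going by the labels, with the difference between DKO minus Ets1KO and Ets2KO minus WT. DKO and Ets1KO both carried floxed Ets2, whereas Ets2KO and WT differed in the floxed allele as well as in Cre. The Y-linked Eif2s3y read 9.30 to 10.23 in Ets2KO and 3.23 to 9.37 in WT, against 3.12 to 3.33 in Ets1KO and 3.63 to 3.66 in DKO. In this test these differences cannot be told apart from Ets2 deletion. Of 45 members 6 were called (3 higher, 3 lower), beside 16.3% of all genes, and 4 of these were called on both scales. As deposited 13 members were called (1 higher, 12 lower), beside 31.6% of all genes. Efna4 had an interaction of -3.20 (adjusted p = 0.0111), Plxnd1 of -2.64 (adjusted p = 0.0116) and Plxnb2 of -1.93 (adjusted p = 0.0358). For these 3 genes Ets2KO was not called against WT, and DKO lay below Ets1KO by 2.38, 2.37 and 1.39. The level of Efna4 in DKO was near the bottom of the array, as above. Sema3e had an interaction of 3.04 (SE 0.69, adjusted p = 0.0205) and its deposited value was 2.22 (adjusted p = 0.0360). Ets2KO was 2.09 below WT, whereas DKO was 0.98 above Ets1KO in relative values (adjusted p = 0.177) and 0.14 in deposited values. With Sema3e in Ets1KO already near the bottom of the array, as above, little room was left for a lower level in DKO, and the part of this in the interaction was not tested. All 3 Sema3e probe sets were called in this test, at 3.04, 4.37 and 4.49. Epha10 (0.95) and Slit1 (0.76) were called in relative values only, and the Slit1 call was lost in 10 of 11 leave-one-out fits.

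The genes that act downstream of guidance receptors or beside them were read from a list of 50, of which 43 were measured. In Ets1KO and in Ets2KO against WT 0 were called. In DKO against WT 2 were called higher and 5 lower, beside 19.8% and 10.6% of all genes, and as deposited 1 was higher and 16 lower, beside 2.32% and 43.6% of all genes. The kinase Rock1, which drives actomyosin contraction, rose by 1.50 (adjusted p = 0.000682), and by 0.70 as deposited. Farp2, which links plexins to Rac, was 1.78 higher in relative values and 0.98 as deposited, where it was not called (adjusted p = 0.0855). The largest falls were those of Grb10 (-3.74), the actin regulator Vasp (-2.82), Gipc1 (-1.53), which binds plexin D1 and neuropilin tails, and the cofilin kinase Limk1 (-1.46), each also called in the deposited values. Grb10, an adaptor of receptor tyrosine kinases, was also called between the single knockouts, at -5.55 in Ets1KO against Ets2KO (adjusted p = 0.0306). As for Plxna4, genotype cannot be told apart there from the Y-linked difference between these groups.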

How the data were processed

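Values were used as the authors deposited them: log2 expression per Affymetrix mouse probe set, made with RMA (named in the submitters' processing notes); its settings and version are not given in the sources used here. All 12 columns were matched to samples by accession, and titles and genotypes set the groups where short descriptions call null samples wild type. Of 20523 probe sets, 18824 carry 1 symbol in the platform annotation, 549 several and 1150 are unlisted. The brightest probe set of each of 11015 genes was tested. The third DKO column was left out as the mean of the others (tolerance 1.00e-05).

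Group means of 11 arrays in 4 groups were compared by lmFit and eBayes of limma 3.58.1 (R 4.3.3, 7 residual and 2.11 prior degrees of freedom as deposited, 2.13 relative to array medians), with Benjamini and Hochberg adjustment over all genes. The fit was tested on simulated data. The number of arrays limits the precision. Replicate numbers of the titles were checked for pairing: deviations from group means correlated above 0.1 in 1 of 15 same-numbered pairs, so no pairing was used.

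Named genes are those called, the member of each family with the largest difference from WT among brighter genes, and members with known vascular roles. Alternatives were another array level, quantile normalization, brighter genes only, the mean of probe sets, a replicate block, all 12 columns, only the groups compared and each array left out. Members, lists and tests were chosen with earlier results of these data known. A further 3 (agreement of every probe set, the median of the tested genes, and no DKO arrays) were added after seeing the data. Promoters are from RefSeq, GRCm38.p6, matched by symbol. Figures were drawn with matplotlib 3.10.9 in Python 3.11.15.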

Additional observations from a re-analysis of the deposited data

Results flagged for a closer look

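The difference between DKO and Ets1KO was not the same as that between Ets2KO and WT for 6 guidance genes, by the interaction test of the same fit. As deposited, Ets1 and Ets2 transcripts overlapped between the arrays labelled DKO and WT. In relative values Ets1 was higher in both DKO arrays (1.72 to 1.99) than in WT (0.72 to 1.21). Efna4 (-3.20), Plxnd1 (-2.64) and Plxnb2 (-1.93) were lower in DKO relative to Ets1KO than in Ets2KO relative to WT, and Sema3e (3.04), Epha10 (0.95) and Slit1 (0.76) were higher, all relative to array medians. As deposited, Efna4 (-4.02), Plxnd1 (-3.47), Plxnb2 (-2.75) and Sema3e (2.22) were called again, while Epha10 (0.13) and Slit1 (-0.058) were not. The interaction was called for 16.3% of all genes, and it rests on 2 DKO arrays. Without DKO replicate 1 the adjusted p of Sema3e was 0.0730, and the call of Plxnb2 was lost in 7 of 11 leave-one-out fits, the call of Slit1 was lost in 10, and those of Efna4, Plxnd1 and Epha10 were kept in all 11, where a fit without a DKO array rests on 1.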

How the results depend on the processing

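At the probe sets tested, every member called higher in DKO than in another group was called in relative values only. As deposited, 15 members were called against WT, 14 against Ets1KO, 17 against Ets2KO and 13 in the interaction. With all 12 columns, which count the DKO mean as an array, the counts were 1 (Sema3e) in Ets1KO and 1 (Sema3e) in Ets2KO against WT, 12 in DKO against WT, 2 in Ets1KO against Ets2KO and 10 in the interaction. With only genes above the median gene, which leaves 17 members, they were 0 in DKO against WT, 2 against Ets1KO, 5 against Ets2KO, 0 in Ets1KO against Ets2KO and 1 in the interaction. Every member called in DKO against WT, and Plxna4, lies below the median gene. That filter removed them before the fit, so both counts of 0 are no test of those calls. With only the groups compared, DKO gave 2 against WT and 7 against Ets2KO. The Plxna4 call between single knockouts gave 0 with the mean of probe sets and 0 where every probe set had to be called. Signs turned as deposited for Epha10 (-0.17 against WT, -0.061 against Ets2KO) and Slit1 (-0.30 against WT, -0.14 against Ets1KO, -0.22 against Ets2KO, -0.058 in the interaction), and for Efnb2 against Ets2KO with the mean of probe sets (-0.43). With the replicate block the counts were 0 in Ets1KO, 0 in Ets2KO, 6 in DKO against WT, 6 against Ets1KO, 10 against Ets2KO, 1 in Ets1KO against Ets2KO (not Plxna4) and 4 in the interaction. Leaving out each array gave 0 to 1 calls in Ets1KO, 0 to 1 in Ets2KO, 2 to 10 in DKO against WT, 5 to 10 against Ets1KO, 6 to 15 against Ets2KO, 0 to 2 in Ets1KO against Ets2KO and 4 to 9 in the interaction. DKO against WT gave 2 without DKO replicate 2. Quantile normalization gave 7, 8, 12 and 7 calls in the DKO comparisons and the interaction. Apart from what values above show, the cause of these shifts was not tested.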
